A study of Mus musculus with 2 samples.

Results

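The 10 genes described here are the cytoplasmic actins Actb and Actg1, the smooth muscle actin Acta2, the actin-binding proteins Tagln, Tagln2 and Cnn2, the myosin light chain Myl9, the tropomyosin Tpm1, the adhesion protein Vcl and the transcription factor Srf. They were taken by name: every gene probe whose name in the scanner files was one of these symbols, which gave 20 probes of 10 genes out of 20054 named genes on the array. The cells were mouse expandable hepatoblasts (eHBs), liver progenitor cells of strain C57BL/6, at passage 20 and at passage 5, with 1 array each. Both cultures grew in the same defined medium on Matrigel or laminin, and the labels do not say which coat each array's cells had. The medium contained 5 mM nicotinamide, 10 ng/ml EGF, 3 uM CHIR99021 (a GSK3 inhibitor), 2 uM E-616452 (which blocks the type I receptor of TGF-beta), 5 uM lysophosphatidic acid (LPA) and 0.5 uM sphingosine 1-phosphate (S1P). The passages came from separate experiments, so passage and experiment cannot be told apart. Neither passage has a replicate, and the differences below compare 2 arrays with no test.

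Actin monomers assemble into filaments that give a cell its cortex, its stress fibres and its contractile bundles. Serum response factor, the product of Srf, binds the CArG box, a short palindromic element with an A- and T-rich centre, and works with 2 families of cofactors. The MRTF and myocardin cofactors are released for nuclear work when actin monomers are drawn into filaments, and their targets include actins, Tagln, Myl9, Vcl and Srf itself. The ternary complex factors, such as Elk1, respond to growth factor kinases and serve immediate early genes such as Egr1 and Fos. In liver, Acta2 and Tagln are used as markers of activated stellate cells and of vascular smooth muscle, whereas Actb and Actg1 are made by nearly every cell.

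RefSeq promoters (GRCm38.p6, 250 bases before to 50 after the start) were found for 8 of the 10 genes, with Actb and Tagln not matched. An exact CArG box was present in 5 of these 8, and their stretches are shown because serum response factor binds this element. The box was searched exactly over its 10 bases; it reads as a CArG box on both strands. Capitals mark the box, with 20 flanking bases on each side, in the direction of the gene.

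Actg1, chr11:120348556-120348605, minus strand: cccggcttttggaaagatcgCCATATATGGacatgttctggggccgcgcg
Cnn2, chr10:79988524-79988573, plus strand: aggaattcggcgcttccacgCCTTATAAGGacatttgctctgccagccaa
Myl9, chr2:156775283-156775332, plus strand: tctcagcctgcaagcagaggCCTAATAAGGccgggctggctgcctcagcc
Vcl, chr14:20929151-20929200, plus strand: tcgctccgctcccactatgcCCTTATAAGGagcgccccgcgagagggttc
Srf, chr17:46556195-46556264, minus strand: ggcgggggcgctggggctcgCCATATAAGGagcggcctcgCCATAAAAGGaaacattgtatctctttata

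Srf carried 2 boxes, 82 and 62 bases before the start. The box lay 90 bases before the start in Actg1, 56 in Cnn2, 161 in Myl9 and 227 in Vcl. Cnn2 and Vcl held the same 10 letters. Of all 32851 promoters in the table, 1.63% held an exact box, and counted by gene 488 of 27025 had one. The 10 genes were grouped as actin and SRF target genes, so a higher share among them follows from that choice. With up to 1 mismatch in the box, 7 of the 8 matched (Tagln2 did not), against 21.1% of all promoters. A match describes these letters only and is no measure of binding.

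At passage 20 the genes did not move as one block. Myl9 was lower by 3.09-fold, Tagln by 2.91-fold and Cnn2 by 1.66-fold, and the remaining 7 lay within 1.5-fold by the probe used for each gene. A second Acta2 probe was lower by at least 8.61-fold. At a 2-fold threshold, 0 of the 10 genes were higher and 2 were lower. Over all 11798 measured genes, the share higher by 2-fold or more was 3.26% and the share lower by 2-fold or more was 5.74%. The median difference of the 10 genes was -0.16 log2, against 0.07 log2 over all measured genes, whose quartiles were -0.22 and 0.33. A measured gene is one detected (well above background) in 1 or both passages, and a gene with several probes is given by its brightest. Signals below are processed spot intensities before scaling. Each array was scaled to the 75th percentile of its gene probes, which was a signal of 853 at passage 20 and 1085 at passage 5, so equal raw signals correspond to a scaled difference of 0.35 log2.

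**Figure D1:**
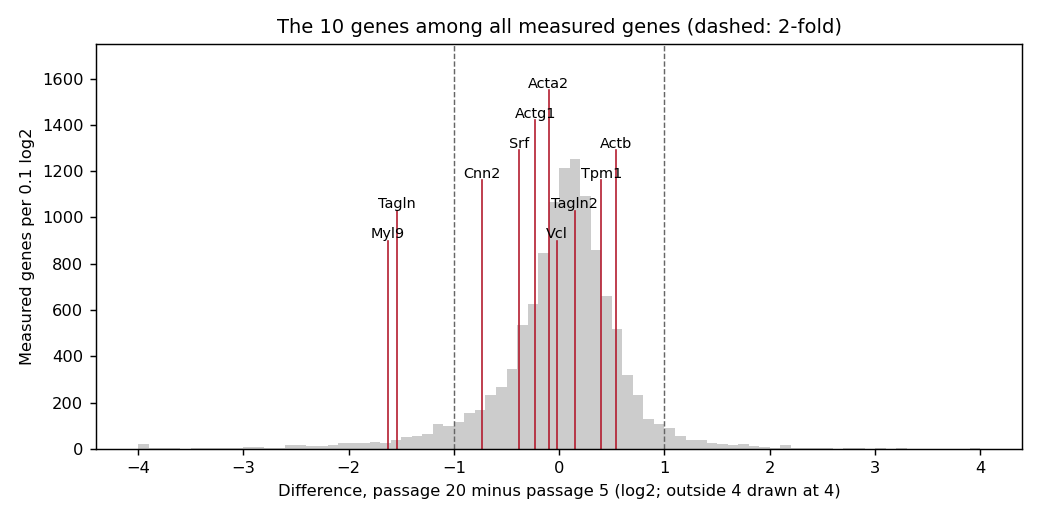
Histogram of the log2 difference, passage 20 minus passage 5, of the 11798 measured genes in steps of 0.1, with the 10 genes as red lines (their heights only separate the labels) and the 2-fold limits dashed. Myl9 (-1.63) and Tagln (-1.54) lie in the lower tail and the other 8 lie between the dashed lines.

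Of the 20 probes, 14 were detected, that is well above background, with both RNAs. At passage 20 alone 0 were detected, 2 were at passage 5 alone, and 4 were undetected throughout. For 5 genes there was 1 probe, and for the other 5 several. Repeat spots were available for 2 probes only, 1 of Actb and 1 of Acta2. For the 14 probes measured on both arrays, the scanner's error model gave an error of 0.204 to 0.252 log2 for the difference between 2 single spots; this covers spot error, not variation between cultures.

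**Figure D2:**
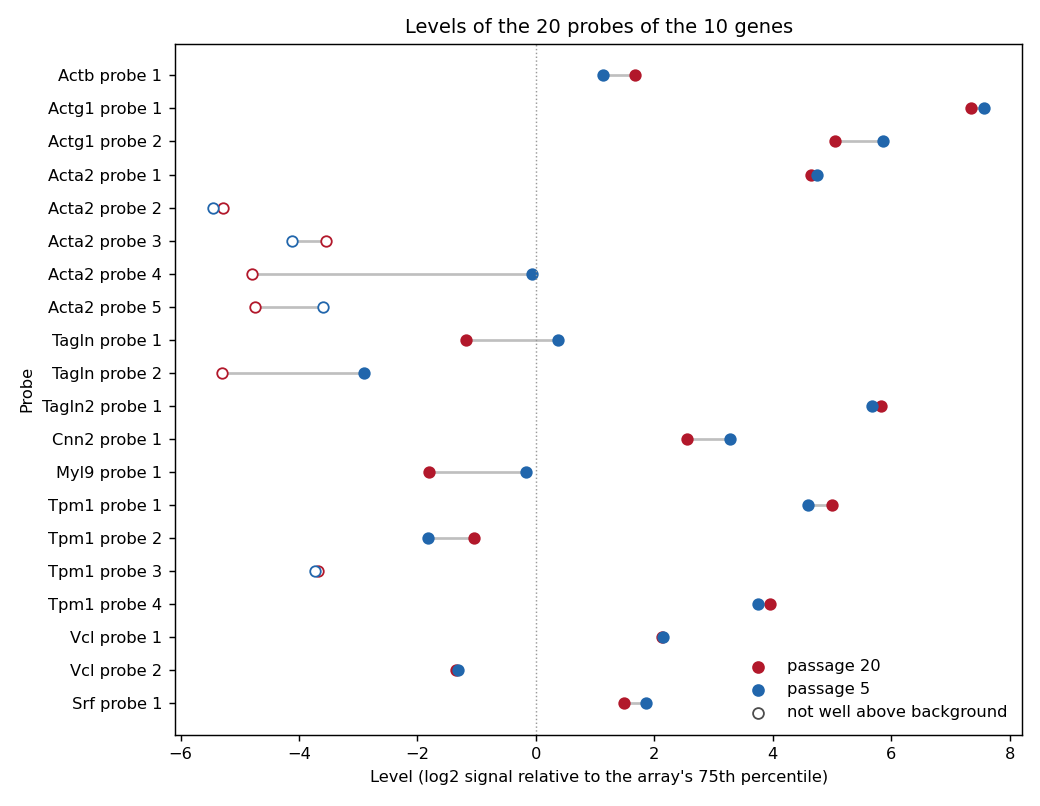
Levels of the 20 probes at passage 20 (red) and passage 5 (blue), as log2 signal relative to each array's 75th percentile; open circles were not well above background. The longest lines belong to Acta2 probe 4, which is the 10-spot probe, to both Tagln probes and to Myl9, with passage 20 at the lower end in each.

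Myl9 encodes a regulatory light chain of smooth muscle and non-muscle myosin, whose phosphorylation switches on contraction. Its probe (mm9 chr2:156607301-156607360) gave a signal of 245 at passage 20 and 963 at passage 5. The scaled difference was -1.63 log2, or 3.09-fold lower at passage 20, with an error-model value of 0.252 for the single spots. Only 2.17% of measured genes had a lower difference. Tagln encodes transgelin (SM22), an actin-bundling protein of smooth muscle. Its brighter probe (mm9 chr9:45738097-45738156) gave 378 at passage 20 and 1399 at passage 5, a difference of -1.54 log2 or 2.91-fold lower, and 2.48% of measured genes lay below it. The second Tagln probe gave 21.6 at passage 20, which was not well above background, and 146 at passage 5, which was. For that probe the difference is a bound of at least 1.21-fold lower, taken against the lowest level detected at passage 20. Both Tagln probes were therefore lower at passage 20; the bound of the second is under 2-fold, although its true difference may be larger. In bulk RNA, fewer cells that express such a gene and less of its RNA per cell cannot be told apart.

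The transgelins and the related calponins differed among themselves. Tagln2, the transgelin of non-muscle cells, gave 48592 at passage 20 and 55752 at passage 5, a scaled difference of 0.15 log2 (1.11-fold higher), which turned negative under 2 of the 11 other processing settings. Cnn2, a calponin of non-muscle cells that binds actin filaments, gave 4980 at passage 20 and 10535 at passage 5 (mm9 chr10:79457785-79457844). This was -0.73 log2 or 1.66-fold lower, with 8.83% of measured genes below it. The smooth muscle calponin Cnn1, not among the 10, gave 20.1 at passage 20, not well above background, and 512 at passage 5, which bounds it at 4.25-fold lower or more. Cnn3, a calponin found in many non-muscle cells, gave 28849 at passage 20 and 24664 at passage 5, or 1.49-fold higher.

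Acta2, the actin of vascular smooth muscle and of activated stellate cells, had 5 probes that gave different pictures. The brightest spans a splice junction in the coding part of the gene, its 60 bases covering 3255 bases of genome (mm9 chr19:34322995-34326249, minus strand). It gave 21482 at passage 20 and 29241 at passage 5, a difference of -0.10 log2 or 1.07-fold lower. The 10-spot probe (mm9 chr19:34316060-34316119, minus strand) lies nearer the 3′ end than the junction probe. It averaged a signal of 30.8 at passage 20 (spots 20.7 to 63.9) and 1036 at passage 5 (spots 916 to 1167). At passage 20, 0 of its 10 spots were well above background, and at passage 5 all 10 were, so the 2 arrays' spots did not overlap. The bound was at least 8.61-fold lower at passage 20 (-3.11 log2), and -2.27 log2 with normexp background correction. The other 3 Acta2 probes stayed undetected at both passages, with signals of 21.8 to 73.4 at passage 20 and 24.9 to 90.3 at passage 5. Of these, 2 lie still further towards the 3′ end than the 10-spot probe (mm9 chr19:34315697-34315756 and chr19:34314826-34314866). They gave 24.9 and 62.6 at passage 5, where the 10-spot probe gave 1036. Why these probes differ was not tested.

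**Figure D3:**
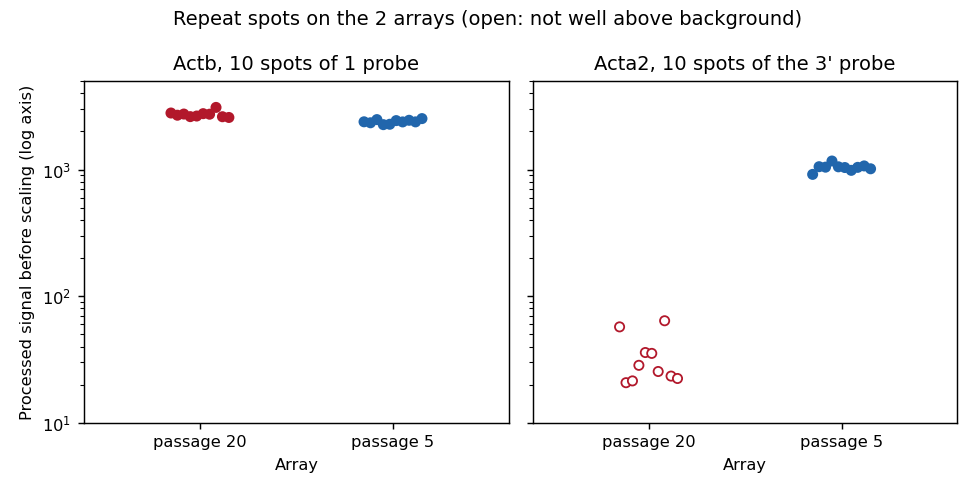
Processed signals of the 10 repeat spots of the Actb probe (left) and of the Acta2 probe near the 3′ end (right), passage 20 in red and passage 5 in blue, on a log axis; open circles were not well above background. The Actb spots lie between 2578 and 3095 at passage 20 and between 2262 and 2525 at passage 5, while the Acta2 spots reach 63.9 at most at passage 20 and start at 916 at passage 5.

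The sequences of these 2 Acta2 probes are shown because the values turn on them; for the probe near the 3′ end only its first 30 bases are given.

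Acta2 junction probe: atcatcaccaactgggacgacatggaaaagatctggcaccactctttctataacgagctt
Acta2 10-spot probe: gttttgtggatcagcgcctccagttccttt

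The coding sequences of the actin genes are closely alike, whereas their 3′ untranslated parts differ. Which actin RNAs the junction probe detects in these cells was not tested, so the level of Acta2 from it is uncertain. With the 10-spot probe in place of the junction probe, 3 of the 10 genes were at least 2-fold lower and the median of the 10 was -0.30 log2.

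The other actins also differed among themselves. Actb gave 2724 at passage 20 (10 spots, 2578 to 3095) and 2390 at passage 5 (2262 to 2525). Its scaled difference was 0.54 log2, or 1.45-fold higher, with a spot SD of 0.0786 log2, and 87.5% of measured genes lay below it. Actb is widely used as a loading reference. Among reference genes of other kinds, Gapdh differed by -0.11 log2, Hprt by -0.04 log2, Tbp by 0.08 log2 and Ppia by 0.57 log2. Actg1, the second cytoplasmic actin, gave 138273 at passage 20 and 205630 at passage 5 on its brighter probe, a difference of -0.23 log2. Its second probe gave 28385 at passage 20 and 63436 at passage 5, or -0.81 log2 (1.76-fold lower). The cytoplasmic actins thus had opposite signs, under the main setting and each of 11 others, and neither reached 2-fold by the probe used. The difference of Actg1 on that probe was close to its error-model value of 0.204 log2. All these settings reuse the same 2 arrays, so they are no independent check of the signs. The second Actg1 probe passed 2-fold with median centring (-1.12 log2) and spike-in scaling (-1.03 log2).

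The 3 actin isoforms outside the 10 genes are those of muscle. Acta1, the skeletal muscle actin, gave 92.3 at passage 20, not well above background, against 466 at passage 5, or at least 3.87-fold lower; with normexp the bound was 1.73-fold. Actc1, the cardiac actin, gave 79.7 at passage 20, again not well above background, and 171 at passage 5, or at least 1.42-fold lower. Actg2, the enteric smooth muscle actin, gave 2170 at passage 20 and 2942 at passage 5, a difference of -0.09 log2. Both Acta1 and Actc1 held an exact CArG box in their promoters. No promoter was matched to Actg2, so it was not searched for the box.

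Tpm1 encodes a tropomyosin, a coiled coil that runs along the actin filament and controls access of myosin. Its brightest probe gave 27244 at passage 20 and 26276 at passage 5, a scaled difference of 0.40 log2 (1.32-fold higher). The 2 further probes above background gave 13204 at passage 20 and 14629 at passage 5 (0.20 log2), and 413 at passage 20 and 307 at passage 5 (0.78 log2). The fourth stayed undetected at both passages, with signals of 66.9 at passage 20 and 82.1 at passage 5. All 3 measured Tpm1 probes were thus positive, by unequal amounts; the scanner files assign the probe at 0.78 log2 to a different transcript accession from the other 2. Tpm2, the tropomyosin abundant in smooth muscle, gave 1785 at passage 20 and 5067 at passage 5, or 2.23-fold lower, and its other probe differed by -1.25 log2. Tpm3 differed by 0.03 log2 and Tpm4 by 0.41 log2.

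Of the 4 myosin light chains read here, Myl9 was the one that reached 2-fold. Against -1.63 log2 for Myl9, the regulatory chains Myl12a and Myl12b differed by 0.38 and 0.40 log2 and the essential chain Myl6 by 0.33 log2. Myl12b gave 110788 at passage 20 and 106709 at passage 5, and Myl6 gave 271658 at passage 20 and 274460 at passage 5.

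Vcl encodes vinculin, which couples integrin and cadherin junctions to actin. Its probes gave 3740 and 334 at passage 20, against 4822 and 434 at passage 5, differences of -0.02 and -0.03 log2. Srf gave 2386 at passage 20 and 3945 at passage 5, a difference of -0.38 log2 or 1.30-fold lower. Neither gene reached 2-fold in the main setting or in the 11 others.

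**Figure D4:**
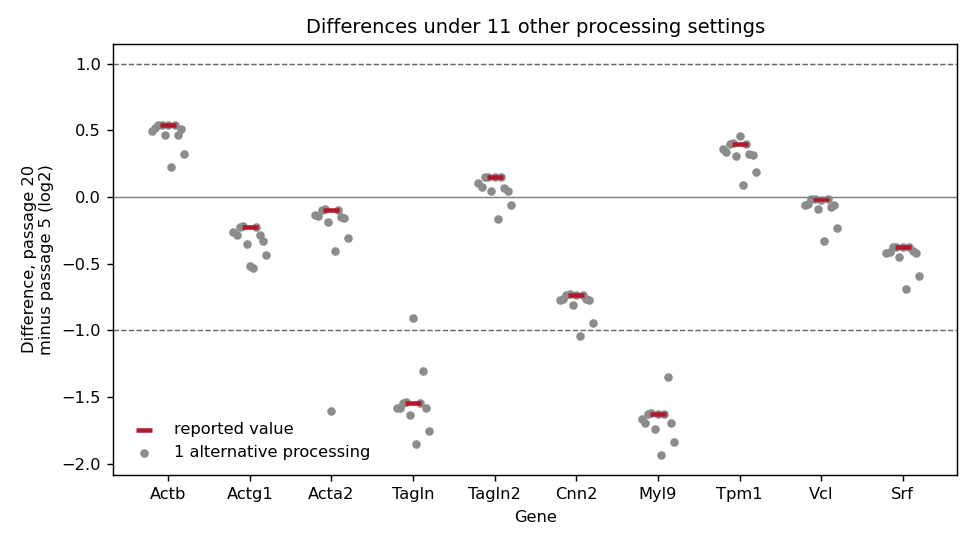
Log2 differences, passage 20 minus passage 5, of the 10 genes with the main processing (red bars) and 11 other settings (grey points), with dashed lines at 2-fold. Myl9 lies below the lower line in every setting and Tagln in all but the mean over probes, which also places Acta2 below it; Cnn2 crosses it with median centring.

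Srf's cofactors and targets were counted from lists of textbook genes. Of 7 cofactors, 5 were measured, and their median was -0.23 log2, a sign that changed with the mean over probes (0.02 log2) and with no filter (0.22 log2). At 2-fold, 0 of these were higher and 1 was lower. The one lower was Myocd, myocardin, the smooth and cardiac muscle cofactor. It gave 22.0 at passage 20, not well above background, and 261 at passage 5, or at least 2.17-fold lower by the brighter of its 2 probes; the other was not measured. This call was lost with normexp (-0.80 log2). Mrtfa differed by -0.29 log2 on its brighter probe and 0.27 log2 on the other. Scai, a suppressor of MRTF activity, differed by 0.51 log2 by 1 measured probe of 4, with dim signals of 144 at passage 20 and 129 at passage 5. The ternary complex factor Elk4 differed by -0.23 log2 on its brightest probe and 0.28 log2 on another. Mrtfb and Elk1 were undetected at both passages.

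All 26 further actomyosin and MRTF-SRF genes were measured. In this list 1 was at least 2-fold higher and 2 were lower, Cnn1 and Tpm2, given above. Its median was 0.23 log2, with 19 positive and 7 negative differences, but -0.09 log2 with median centring. The higher gene was Pdlim5, a PDZ and LIM protein of actin bundles, which gave 7554 at passage 20 and 4587 at passage 5 (2.09-fold), and its 5 probes ranged from 0.74 to 1.59 log2. Pdlim5 fell short of 2-fold with normexp or loess (0.99 log2 in each), spike-in scaling (0.85 log2) and median centring (0.76 log2), so that 0 genes of the list were then higher. These counts use the brightest probe. Other probes passed 2-fold in 3 genes counted as within it: Flna, filamin, with 3 probes from -0.63 to 1.98 log2, Tln1 as given below, and the myosin heavy chain Myh9 with probes at 0.61 and 1.22 log2. Tgfb1i1, an adhesion LIM protein also called Hic-5, differed by 0.79 log2. This came from 1 measured probe of 3, with dim signals of 159 at passage 20 and 117 at passage 5.

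The listed immediate early genes went in both directions; their control by ternary complex factors was not tested. Of 10 immediate early genes 7 were measured, and of these 3 were at least 2-fold higher and 1 was lower (median of all 7, 0.79 log2). Egr1, a zinc finger factor, gave 4972 at passage 20 and 1516 at passage 5 (4.17-fold higher). Fos, an AP-1 subunit, gave 563 at passage 20 and 308 at passage 5 (2.33-fold higher), and Btg2, an antiproliferative gene, was 2.12-fold higher. The higher calls of Fos and Btg2 were lost with normexp (0.94 and 0.97 log2) and with median centring (0.91 and 0.77 log2), and that of Btg2 also with spike-in scaling (0.87 log2), whereas Egr1 kept its call in these 3 settings. Nr4a1, an orphan nuclear receptor, was lower by 7.72-fold, with 2946 at passage 20 and 28943 at passage 5. Promoters were matched for 7 genes of this list, and 1 held an exact CArG box, that of Egr2, which was undetected at both passages.

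The listed genes of focal adhesions, and Ctnna1 of cadherin junctions, were all measured, Vcl working at both kinds of site. By the brightest probe, 0 of the 16 were higher and 0 lower by 2-fold, and their median was -0.19 log2. Other probes of 2 of these genes passed 2-fold: Ctnna1, alpha-catenin, had probes at -0.23 and 2.25 log2, and Tln1, talin, had 3 probes from -0.28 to 1.53 log2. With the mean over probes Ctnna1 counted as higher (1.01 log2). The largest difference in that list was that of Pxn, paxillin, at -0.87 log2, but another Pxn probe differed by 0.68 log2. Pxn passed 2-fold with median centring (-1.18 log2) and spike-in scaling (-1.08 log2). Ilk differed by -0.46 log2, the kindlin gene Fermt2 by -0.44 log2 and the integrin subunit gene Itgav by 0.38 log2. By the brightest probe, all 11 reference genes lay within 2-fold, with a median of -0.02 log2, but the 3 probes of Sdha ranged from -0.48 to 1.71 log2.

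Genes with an exact CArG box were called at shares near those of all genes. Of 163 measured genes with one, 3 (1.84%) were higher by 2-fold or more and 11 (6.75%) were lower to that extent. The median of the 163 was 0.00 log2. Over the 9473 measured genes in the promoter table the shares were 3.12% higher and 5.29% lower, around a median of 0.07 log2. Among the 5 of the 10 genes with an exact box, the differences ran from -1.63 log2 in Myl9 through -0.73 in Cnn2, -0.38 in Srf and -0.23 in Actg1 to -0.02 log2 in Vcl.

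Acta2, Tagln and Myl9 are also expressed by smooth muscle and stellate cells, so markers of these cells were read on the same arrays. Of 11 smooth muscle markers, 6 were measured, with 1 at least 2-fold higher and 2 lower. The lower ones were Cnn1 and Myocd, and the higher was Lmod1, leiomodin, with 283 at passage 20 and, not well above background, 63.9 at passage 5 (at least 3.32-fold). Mylk, the kinase of the myosin light chain, differed by -0.46 log2. The defining marker Myh11 was undetected at both passages, as was Des, which is also in the stellate cell and fibroblast list. The summed signal of the 6 measured markers, each relative to the array's 75th percentile, was 7.54 at passage 20 and 7.76 at passage 5. Most of both sums came from Smtn, smoothelin, and Actg2, so they hardly reflect the other markers. Smtn gave 3625 at passage 20 and 4101 at passage 5 (0.17 log2), and Actg2 gave 2170 and 2942. Of 13 stellate cell and fibroblast markers 2 were measured. Dcn, decorin, gave 30.8 at passage 20, not well above background, and 1918 at passage 5, or at least 15.9-fold lower by 1 of its 2 probes, while Reln, reelin, gave 2983 at passage 20 and 2286 at passage 5 (0.73 log2). The collagen genes Col1a1, Col1a2 and Col3a1 and the receptors Pdgfra and Pdgfrb were likewise undetected at both. The summed relative signal of the 2 measured markers was 3.53 at passage 20, nearly all of it from Reln, and 3.88 at passage 5, from both genes. The part of Dcn-expressing or muscle-type cells in the differences of Tagln, Myl9 and Acta2 was not tested.

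The labelled cell type was checked with 9 hepatoblast and liver epithelial markers, all well above background on both arrays. Their summed relative signal was 896 at passage 20 and 937 at passage 5, with a median difference of -0.18 log2. Nearly all of both sums came from the keratin genes Krt18, Krt8 and Krt19. Krt18 gave 376538 at passage 20 and 427427 at passage 5, and Krt8 gave 218236 and 313473. Afp gave only 5316 at passage 20 and 6348 at passage 5, so the sum says little about it. Afp differed by 0.09 log2, Hnf4a by -0.21 log2, Krt19 by -0.52 log2 and Sox9 by -0.51 log2. The 3 probes of Hnf4a ranged from -0.21 to 0.52 log2. Cdh1, E-cadherin, was 2.89-fold higher at passage 20 and Epcam was 2.24-fold lower, though 1.48-fold lower with normexp.

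Across the whole arrays, the scanner flagged 18969 of 41158 gene probes (46.1%) as detected at passage 20 and 18738 (45.5%) at passage 5, with 0 saturated spots. Among 91 probes with 10 spots above background in all, the median spot SD was 0.058 log2 at passage 20 and 0.0537 log2 at passage 5. Most probes of the 10 genes had 1 spot, however, and for those measured on both arrays the error model gave 0.204 to 0.252 log2. The differences of Vcl (-0.02 log2), Acta2 by its junction probe (-0.10 log2) and Tagln2 (0.15 log2) were smaller than this error. With 1 array per passage, variation between cultures was not measured for any difference given above.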

How the data were processed

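Per the labels' protocols, Cy3-labelled cRNA amplified from total RNA was read on 1-colour Agilent arrays. Per the file headers, the deposited intensity values come from Feature Extraction 10.7.3.1: background-subtracted, detrended and set to a surrogate value where they do not exceed noise. Other deposited columns flag signals well above background, saturated spots and outliers. Log2 values that the authors deposited were an alternative only. Across probes their r with the log2 scanner intensity was 0.99986 (passage 20) and 0.99987 (passage 5), their medians were 6.32 in both columns, they are not centred by gene, and their normalization is unknown.

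Flagged spots (69 at passage 20, 73 at passage 5) were dropped on both arrays, log2 intensities averaged per probe, and each array's 75th percentile subtracted. Genes took the brightest probe. A probe detected on a single array has a bound: its level there against its level on the other array or that array's lowest detected level, whichever is higher (-3.17 log2 at passage 20, -3.32 at passage 5), written as at least N-fold. Probe positions are the files' (mm9); names came from the RefSeq table of GRCm38.p6, 27668 probes by accession, 5589 by symbol and 471 by older symbol, with 7446 unmatched. Python 3.11.15, R 4.3.3 and limma 3.58.1 (normexp, offset 50; loess, span 0.3) were used, and the steps were tested on simulated data. With 1 array per passage, no p-value was computed. The 10 genes and the 10 gene lists were chosen with earlier results of these data known; 1 list is not reported here. Named are all 10 genes with their probes, up to 4 measured genes per list with the largest differences, and the reference genes. Genes beyond this (other members of the same protein families, undetected markers, genes whose probes disagree, Afp, Hnf4a, Krt8, Krt18 and Smtn) were chosen after their values were seen. No genes of a like pattern are named, since 2 arrays give no measure of likeness.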

Additional observations from a re-analysis of the deposited data

How the results depend on the processing

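Over the main setting and 11 others, Myl9 ranged from -1.94 to -1.35 log2 and Tagln from -1.85 to -0.91, the last with the mean over probes. Acta2 ranged from -1.60 (mean over probes) to -0.09, Cnn2 from -1.05 to -0.73, Srf from -0.69 to -0.37, Actg1 from -0.54 to -0.22, Vcl from -0.33 to -0.02, Actb from 0.22 to 0.54, Tpm1 from 0.09 to 0.46 and Tagln2 from -0.16 to 0.15. Of the 10 genes, 2 were at least 2-fold lower, and 0 at a 4-fold threshold. Their median (-0.16 log2) was -0.203 with the percentile over detected probes, -0.214 with the authors' values, -0.22 with normexp, -0.245 with quantile normalization, -0.268 with loess, -0.374 with spike-in scaling, -0.449 with the mean over probes, -0.473 with median centring and -0.302 with the Acta2 10-spot probe, an alternative chosen after seeing the data. Median centring and spike-in scaling moved the median of all genes to -0.24 and -0.14 log2. Both shift a whole array by a constant. The gap from the median of all genes to that of the 10 genes therefore stayed at -0.23 log2, as in the main setting. This gap was -0.52 log2 with the mean over probes, -0.37 with the Acta2 10-spot probe and -0.31 with no filter. In the other settings it lay between -0.26 and -0.23 log2. The share of all genes at least 2-fold higher (3.26%) was 10.4% at 1.5-fold, 0.50% at 4-fold, 1.64% with median centring, 6.41% with no filter, 2.14% with normexp and 1.98% with spike-in scaling; the share lower (5.74%) was 11.8% at 1.5-fold, 1.37% at 4-fold, 9.55% with median centring and 3.38% with normexp. The stellate list's median (-1.63 log2) became 0.731 where both arrays had to be above background, since only Reln then remained, and 0.176 with no filter. Requiring detection on both arrays removes every bound by construction, so the calls of Acta1, Cnn1, Myocd, Lmod1 and Dcn have no value there. In the gene lists, normexp left 1 immediate early gene higher (3 in the main setting) and 0 actin isoforms, cofactors and liver markers lower (1 each), and loess put 2 actin isoforms lower. The other causes were not tested. No paired analysis was possible because each passage has 1 array. No array was left out in turn for the same reason.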

Other observations

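Among all measured genes with an exact CArG box, the 11 that were at least 2-fold lower at passage 20 included Myl9 and Acta1, described above. Also among them were the aquaporin Aqp9 (a bound of -2.27 log2, detected at passage 5 only), Robo1 (-1.25 log2) and the LIM protein gene Fhl1 (a bound of -1.15 log2). The 3 that were higher were Itgb6 (1.77 log2), an integrin subunit of epithelia, Cyp1a1 (1.68 log2) and Serpinc1 (1.24 log2), the gene of the plasma protein antithrombin. These genes were named after their values were seen.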
